A study of Mus musculus with 9 samples.

Results

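Hdac1 and Hdac2 were mapped by chromatin immunoprecipitation and sequencing (ChIP-seq) in cells of the line labelled Hd1_loxlox, and the peaks of the Hdac1 library were set against those of the Hdac2 library of the same line. The members were all peaks the authors deposited for these 2 libraries, 7490 for Hdac1 and 5161 for Hdac2, which together are 12651 of the 46202 peaks of the whole series. The cells were haemogenic endothelium made in culture from mouse embryonic stem (ES) cells of the C57BL/6 background, and Hd1_loxlox was at passage 25 to 30. Chromatin was precipitated with an Hdac1 antibody from Diagenode or an Hdac2 antibody from abcam, no treatment was recorded, and there was 1 library a side. Hdac1 and Hdac2 lists of 2 further lines, Bry at passage 16 to 19 and Hd2lox at passage 25 to 30, served as readouts that the choice of members did not use. The labels give no genotype beyond the names of the lines and no number of clones or separate differentiations. The input libraries were not analysed here. With 1 library a side nothing below is tested, and the intervals (95%, Wilson) cover counting error over peaks only.

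Hdac1 and Hdac2 are closely related class I histone deacetylases, enzymes that remove acetyl groups from histone tails. They commonly sit together, as partners, in the Sin3, NuRD and CoREST co-repressor complexes, which transcription factors bring to promoters and enhancers. Haemogenic endothelium is the endothelium from which the first blood cells bud, a step in which Runx1, Gfi1, Gfi1b and signals of the TGF-beta, BMP and Notch pathways take part. A peak shows where the precipitated protein was found on the genome, and says nothing of how strongly a gene was expressed.

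A peak was called shared when it overlapped a peak of the other antibody by 1 bp or more, and a peak was placed at a gene start when it reached within 1000 bp of the start of a protein-coding gene. The promoter table from RefSeq lists no start for 4395 of the 21887 protein-coding genes, and for these both outer ends of the gene were taken, so that a peak counted there may lie at the stop. The sequences that follow are the 200 bases before the start of genes that illustrate the classes described below, 5′ to 3′ on the strand of the gene, from RefSeq on GRCm38.p6, the assembly of mm10. Every CG dinucleotide is in capitals, because the classes of promoter differed in CG content. Acvr2b and Kmt2a carried both antibodies at the start, Smad6 and Tgfb1 carried Hdac1 and no Hdac2, and Lhx3 (2 listed starts), Ankrd34b, Ncan and Tmem91 carried Hdac2 and no Hdac1. These genes were chosen for display after their values were seen.
Acvr2b, chr9:119401978-119402177 (+ strand): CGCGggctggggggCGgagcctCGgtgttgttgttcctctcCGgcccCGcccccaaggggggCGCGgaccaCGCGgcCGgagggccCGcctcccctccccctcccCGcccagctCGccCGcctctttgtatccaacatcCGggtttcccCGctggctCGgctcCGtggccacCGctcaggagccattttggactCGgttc
Kmt2a, chr9:44881290-44881489 (- strand): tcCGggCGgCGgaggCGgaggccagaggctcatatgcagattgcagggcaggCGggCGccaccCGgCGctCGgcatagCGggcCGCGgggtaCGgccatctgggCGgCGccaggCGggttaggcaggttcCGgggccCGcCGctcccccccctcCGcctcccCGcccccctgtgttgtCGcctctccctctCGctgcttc
Smad6, chr9:64022060-64022259 (- strand): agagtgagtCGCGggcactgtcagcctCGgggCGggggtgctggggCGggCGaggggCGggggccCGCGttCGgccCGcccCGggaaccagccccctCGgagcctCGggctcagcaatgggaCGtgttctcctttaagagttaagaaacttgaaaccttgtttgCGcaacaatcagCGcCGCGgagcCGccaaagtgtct
Tgfb1, chr7:25686802-25687001 (+ strand): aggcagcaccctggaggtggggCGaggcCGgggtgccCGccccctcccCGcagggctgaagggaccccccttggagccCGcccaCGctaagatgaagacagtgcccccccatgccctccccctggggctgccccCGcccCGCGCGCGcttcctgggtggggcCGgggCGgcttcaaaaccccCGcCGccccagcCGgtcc
Lhx3, chr2:26208250-26208449 (- strand): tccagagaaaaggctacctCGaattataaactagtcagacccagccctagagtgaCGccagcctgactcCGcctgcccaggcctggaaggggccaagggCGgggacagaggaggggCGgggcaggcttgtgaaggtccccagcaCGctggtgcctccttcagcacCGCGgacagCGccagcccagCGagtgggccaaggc
Lhx3, chr2:26206576-26206775 (- strand): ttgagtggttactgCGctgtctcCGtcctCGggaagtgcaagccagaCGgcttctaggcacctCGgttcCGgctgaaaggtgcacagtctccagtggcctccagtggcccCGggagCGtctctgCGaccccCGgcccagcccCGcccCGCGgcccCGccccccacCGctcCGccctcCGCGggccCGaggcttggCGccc
Ankrd34b, chr13:92425769-92425968 (+ strand): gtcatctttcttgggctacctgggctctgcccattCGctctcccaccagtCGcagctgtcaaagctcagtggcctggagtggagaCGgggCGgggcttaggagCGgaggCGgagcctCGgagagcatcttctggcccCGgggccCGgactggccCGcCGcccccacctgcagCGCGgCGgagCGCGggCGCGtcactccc
Ncan, chr8:70120845-70121044 (- strand): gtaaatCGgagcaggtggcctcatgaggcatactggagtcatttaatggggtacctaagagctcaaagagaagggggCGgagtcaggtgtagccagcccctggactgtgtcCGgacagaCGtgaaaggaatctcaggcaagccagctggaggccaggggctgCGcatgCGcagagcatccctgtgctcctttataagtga
Tmem91, chr7:25675167-25675366 (- strand): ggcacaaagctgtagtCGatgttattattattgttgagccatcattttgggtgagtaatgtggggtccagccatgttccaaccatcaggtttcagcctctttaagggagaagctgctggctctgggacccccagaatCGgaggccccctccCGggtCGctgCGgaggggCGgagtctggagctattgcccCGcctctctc
The 200 bases before the start held 21 CG in Acvr2b, 23 in Kmt2a, 20 in Smad6 and 16 in Tgfb1. They held 10 and 20 at the 2 starts of Lhx3, and 18 in Ankrd34b, whose Hdac2 peaks also appeared in other lines. They held 6 in Ncan and 7 in Tmem91, whose Hdac2 peaks appeared in no other list.

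Hdac1 and Hdac2 peaks of Hd1_loxlox lay in largely separate places. Of the Hdac1 peaks, 319 of 7490 (4.26%, interval 3.82 to 4.74) overlapped an Hdac2 peak, and of the Hdac2 peaks, 320 of 5161 (6.20%, interval 5.57 to 6.89) overlapped an Hdac1 peak. This left 7171 Hdac1-only and 4841 Hdac2-only peaks. A peak of median width placed anywhere on the same chromosomes would touch the other list over 0.673% of positions for Hdac1 and 1.06% for Hdac2, so the overlap was 6.33 times and 5.87 times that background. The overlap was above the share of positions, and still a small share of either list.

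The Hdac2 list of Hd1_loxlox stood apart, with few of its peaks in any other list, and every result on Hdac2 in this line rests on that 1 library. In Bry, 79.7% of Hdac1 peaks overlapped an Hdac2 peak and 66.1% of Hdac2 peaks overlapped an Hdac1 peak. In Hd2lox the same shares were 43.3% of Hdac1 peaks and 36.1% of Hdac2 peaks. Of all Hd1_loxlox Hdac2 peaks, 92.2% overlapped no peak of the 4 Bry and Hd2lox lists, whereas 9.15% of the Hd1_loxlox Hdac1 peaks overlapped none. List by list, 4.96% of the Hdac2 peaks met the Bry Hdac1 list, 5.93% the Bry Hdac2 list, 4.65% the Hd2lox Hdac1 list and 3.29% the Hd2lox Hdac2 list. No second Hdac2 library of the line exists among those analysed here, so the comparison within the line cannot be given without it. With 1 library a side, the antibody and the library cannot be told apart in this line.

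The 2 antibodies differed in where their peaks sat relative to genes. Of the Hdac1-only peaks, 6132 (85.5%, interval 84.7 to 86.3) were at a gene start, 611 (8.52%) lay elsewhere in a protein-coding gene, 202 (2.82%) in another kind of gene and 226 (3.15%) outside annotated genes. Of the Hdac2-only peaks, 219 (4.52%, interval 3.97 to 5.15) were at a gene start, 2378 (49.1%) lay elsewhere in a protein-coding gene, 441 (9.11%) in another kind of gene and 1803 (37.2%) outside annotated genes. Hdac1-only peaks were thus mainly promoter peaks, and Hdac2-only peaks were spread through gene bodies and the spaces between genes. A peak of the same median width would touch a gene start window over 3.77% of positions for Hdac1-only and 3.37% for Hdac2-only peaks, so the observed shares were 22.7 times and 1.34 times the share of positions. For protein-coding genes as a whole the ratios were 2.23 for Hdac1-only and 1.27 for Hdac2-only peaks. The median distance to the nearest start was 273 bp for Hdac1-only and 30069 bp for Hdac2-only peaks, and 86 of 7171 Hdac1-only peaks against 1118 of 4841 Hdac2-only peaks (23.1%) lay more than 100 kb away.

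Shared peaks, like Hdac1-only peaks, were mostly at gene starts. Each shared peak is or overlaps an Hdac1 peak, and 85.0% of all Hdac1 peaks were at a gene start. Much of this placement therefore follows from how the class was defined. Of the Hdac1 peaks overlapped by Hdac2, 234 (73.4%, interval 68.2 to 77.9) were at a gene start, and of the Hdac2 peaks overlapped by Hdac1, 219 (68.4%, interval 63.2 to 73.3) were. Their median distance to a start was 454 bp on the Hdac1 side and 699 bp on the Hdac2 side. In other lines the same split was seen to different degrees. At gene starts were 73.4% of the Hdac1-only and 56.8% of the Hdac2-only peaks of Bry, and 55.6% of the Hdac1-only and 2.64% of the Hdac2-only peaks of Hd2lox. A low share of Hdac2-only peaks at gene starts was therefore seen in Hd1_loxlox and in Hd2lox, and not in Bry.

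**Figure D1:**
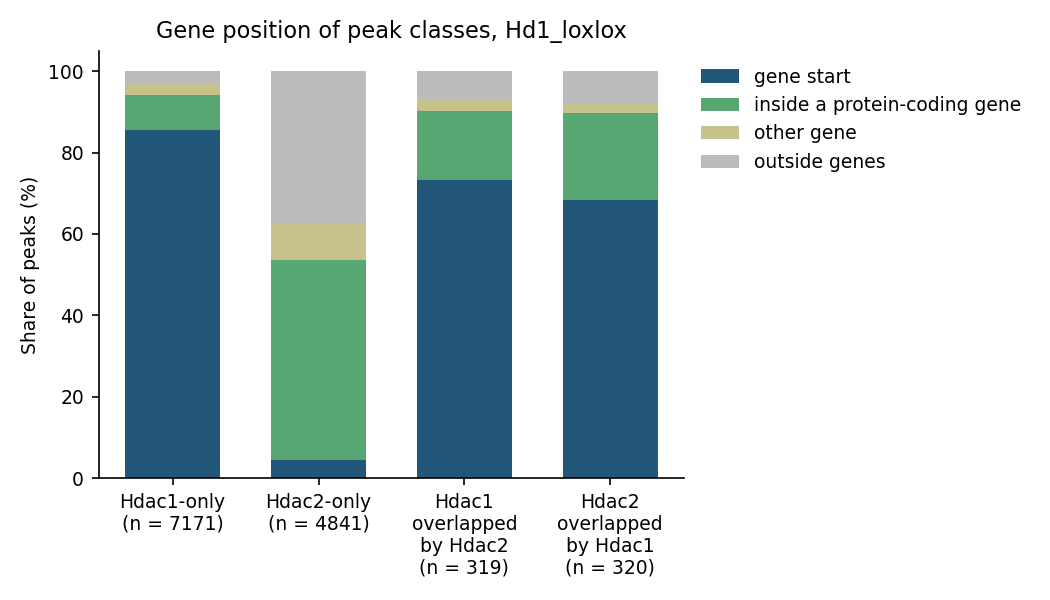
Share of peaks (%, stacked bars) by gene position for the 4 peak classes of Hd1_loxlox, with the number of peaks of each class under its bar. Gene starts make up 85.5% of the Hdac1-only bar and 4.52% of the Hdac2-only bar, and 68.4% or more of both overlapped classes.

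Around the 21238 start sites listed, Hdac1 peaks formed a high, narrow crest and Hdac2 peaks a low one. Hdac1 peaks covered at most 30.0% of starts, 100 bp downstream of the start, and 0.862% at 5000 bp upstream. Hdac2 peaks covered at most 0.946% of starts (201 starts), 200 bp downstream, and 0.268% at 5000 bp upstream. Both profiles had their maximum just inside the gene.

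**Figure D2:**
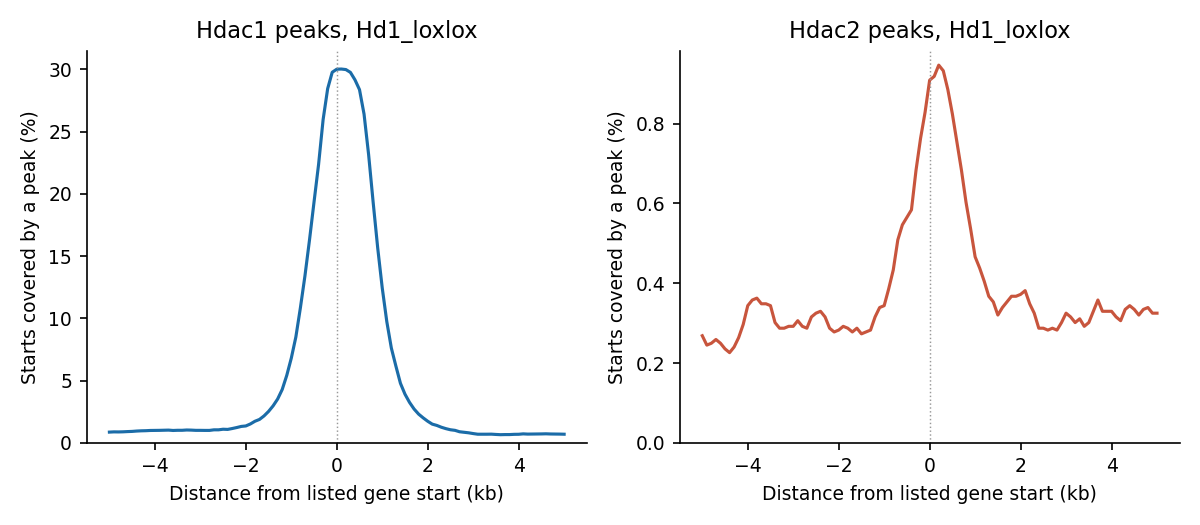
Share of listed gene starts (%) covered by an Hdac1 peak (left) or an Hdac2 peak (right) of Hd1_loxlox, by distance from the start in kb, with positive distances inside the gene. The left axis runs to about 30% and the right axis to under 1%, with the crest just downstream of the start in both.

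Where the antibodies met, the Hdac2 peak was usually the smaller and lay within the Hdac1 peak. In 206 of 320 overlapping pairs (64.4%) the Hdac2 peak lay inside the Hdac1 peak, in 111 (34.7%) the peaks were staggered, and in 3 the Hdac1 peak lay inside the Hdac2 peak. The median overlap was 807.5 bp. Taken pair by pair, the median share overlapped was 49.2% of the Hdac1 peak and 100% of the Hdac2 peak. Edge contacts were few, since 4 pairs overlapped by under 50 bp. Peak centres were a median of 267 bp apart. Over pairs, the width of the Hdac1 peak and that of its Hdac2 partner were nearly unrelated (Spearman rho 0.109, n = 320 pairs from 1 pair of libraries, a description).

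Hdac1 peaks were wider than Hdac2 peaks, and overlap with the other antibody ran in opposite directions with width. The median width was 1469 bp for Hdac1-only and 1104 bp for Hdac2-only peaks, against 1646 bp for overlapped Hdac1 peaks and 945.5 bp for overlapped Hdac2 peaks. When each list was cut by width into 5 equal groups, the overlapped share was 2.48% in the narrowest group of Hdac1 peaks and 7.87% in the widest. For Hdac2 it was 9.78% in the narrowest group and 4.47% in the widest. Neither list runs by position, and what its order means is not stated. Cut by that order, the first group was overlapped most on both sides, at 9.81% of Hdac1 peaks and 11.2% of Hdac2 peaks, against 1.87% of Hdac1 peaks and 4.94% of Hdac2 peaks in the last group.

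Hdac1-only peaks recurred in other lines and Hdac2-only peaks seldom did. A peak of Bry or Hd2lox, of either antibody, overlapped 6516 Hdac1-only peaks (90.9%, interval 90.2 to 91.5) and 120 Hdac2-only peaks (2.48%, interval 2.08 to 2.96). Of the Hdac1-only peaks, 74.6% overlapped the Hdac1 list of Bry, 76.9% its Hdac2 list, 52.1% the Hdac1 list of Hd2lox and 27.6% its Hdac2 list. Of the Hdac2-only peaks, 0.537% overlapped the Hdac1 list of Bry, 0.950% its Hdac2 list, 1.07% the Hdac1 list of Hd2lox and 1.16% its Hdac2 list. The share of positions where a peak of their median width would touch those lists was 0.957%, 1.11%, 0.861% and 0.755% in the same order. The Hdac2-only shares lay between 0.561 and 1.53 times that background. This class leaves out every Hdac2 peak that overlapped the Hd1_loxlox Hdac1 list, most of which recurred, so its definition lowers these ratios. For all Hdac2 peaks the ratios were 5.18 and 5.32 for the Hdac1 and Hdac2 lists of Bry, and 5.40 and 4.37 for those of Hd2lox. The Hdac1-only shares were 70.6 times their background for the Hdac1 list of Bry and 62.4 times for its Hdac2 list. For the Hdac1 and Hdac2 lists of Hd2lox they were 53.3 times and 30.9 times.

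Shared peaks recurred about as often as Hdac1-only peaks, which follows largely from their definition as peaks on the Hdac1 list. Of all Hdac1 peaks, 90.9% met a peak of another line. Of the Hdac1 peaks overlapped by Hdac2, 90.6% met a peak of another line, and of the Hdac2 peaks overlapped by Hdac1, 88.8% did. Hdac2-only peaks at gene starts recurred more often than those elsewhere, at 43 of 219 (19.6%, interval 14.9 to 25.4) against 77 of 4622 (1.67%, interval 1.34 to 2.08). The 77 still made up most of the 120 recurrent Hdac2-only peaks, because so many more Hdac2-only peaks lay away from starts.

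**Figure D3:**
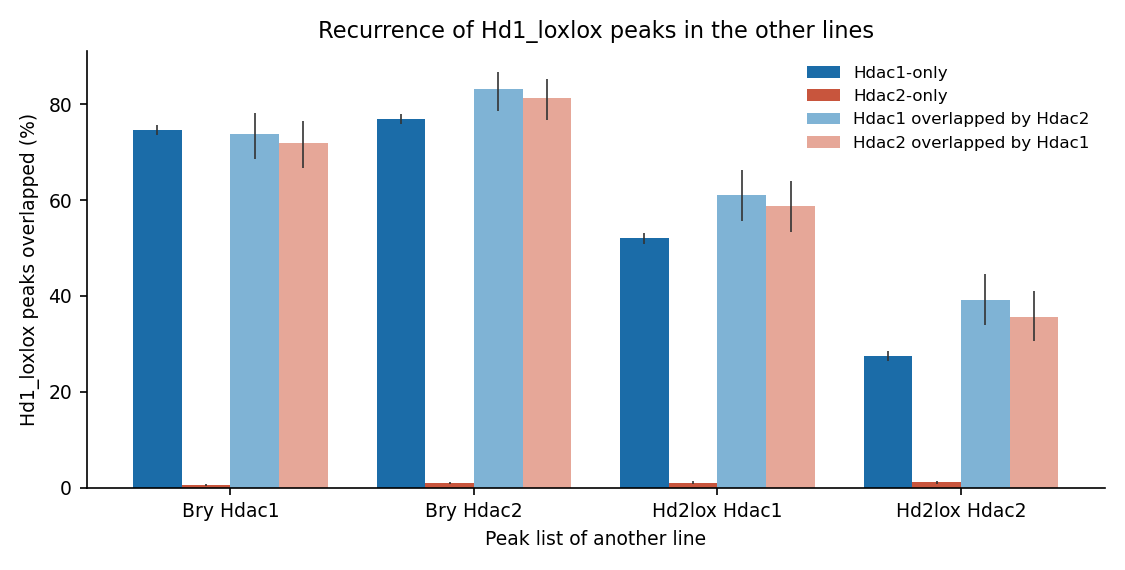
Share of Hd1_loxlox peaks (%, bars, with 95% Wilson intervals as lines) overlapped by each list of Bry and Hd2lox, for Hdac1-only, Hdac2-only and both overlapped classes. The Hdac2-only bars stay at or below 1.16%, and every other bar is at 27.6% or more.

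Counted over 21887 protein-coding genes, 7073 (32.3%) had an Hdac1 peak at the start and 465 (2.12%) an Hdac2 peak there. Both were found at 274 genes (1.25%), Hdac1 and no Hdac2 at 6799 (31.1%), and Hdac2 and no Hdac1 at 191 (0.873%). Anywhere in the gene, 7519 genes (34.4%) had an Hdac1 peak and 2304 (10.5%) an Hdac2 peak. Of the genes with both, 80.3% had an Hdac1 peak at the start in Bry, 87.2% an Hdac2 peak in Bry, 69.7% an Hdac1 peak in Hd2lox and 41.2% an Hdac2 peak in Hd2lox. Over all protein-coding genes those shares were 32.4%, 35.1%, 24.7% and 13.6%. For genes with Hdac1 and no Hdac2 they were 80.0%, 80.2%, 54.4% and 28.4%, and for genes with Hdac2 and no Hdac1 they were 12.6%, 19.4%, 20.4% and 15.2%. Genes with neither gave 9.59%, 13.4%, 10.1% and 6.26%. Genes with Hdac2 and no Hdac1 were above these shares in each list, and nearer to them than to genes with both. Because the class was chosen for lacking Hdac1 in this line, that nearness follows at least in part from the choice. It says nothing particular about Hdac2. Of the 191, 131 (68.6%) had no peak at the start in any other list, against 4.74% of genes with both, 6.10% of genes with Hdac1 and no Hdac2, and 77.9% of genes with neither.

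Promoters grouped by the antibodies found at them differed in base composition. Over the 300 bases from 250 before to 50 after the start, promoters with both antibodies held a median of 29.5 CG dinucleotides (n = 132), those with Hdac1 and no Hdac2 26 (n = 6345), those with Hdac2 and no Hdac1 10 (n = 94) and those with neither 6 (n = 14692). The median over all 21263 promoters of protein-coding genes was 13. These are counts of single promoters, and they differ from the 274 genes with both and 191 with Hdac2 and no Hdac1 counted by the 1000 bp window. The groupings are thus not the same, and a gene displayed above need not fall in the promoter class of the same name. GC content ran the same way, with medians of 69.5%, 65%, 57.7% and 52.3%. The GC box letters GGGCGG, on either strand, stood in 78.0% of promoters with both, 74.5% with Hdac1 and no Hdac2, 46.8% with Hdac2 and no Hdac1 and 33.7% with neither, against 46.2% of all. The letters CCGGAA, the core of many ETS factor sites, stood in 25%, 32.1%, 14.9% and 12.9% of the same classes, against 18.7% of all. TATAAA stood in 1.52%, 4.59%, 7.45% and 16.2%, against 12.6% of all. These searches covered both strands, and a match is a run of letters, not a binding site. GGGCGG and CCGGAA each contain a CG, so they are not independent of the CG counts.

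In the TGF-beta pathway, Hdac1 was at the start of most receptors and Smads, and Hdac2 at the start of 1 gene, Acvr2b. Of 40 genes of the list, 22 had Hdac1 at the start and 1 had Hdac2 there, and 8 had Hdac2 anywhere in the gene, against 32.3%, 2.12% and 10.5% of all protein-coding genes. Acvr2b, a type II activin receptor, had an Hdac1 peak of 2601 bp (chr9:119401469-119404069) that contained an Hdac2 peak of 1735 bp (chr9:119402310-119404044), and its start was also reached by both antibodies in Bry and in Hd2lox. With Hdac1 and no Hdac2 at the start were the ligand Tgfb1 (peak of 4031 bp), the receptors Tgfbr1 (1771 bp), Tgfbr2 (1324 bp), Acvr1 (1823 bp) and Acvr2a (1285 bp), and the shared signal carrier Smad4 (2002 bp). The inhibitory Smads, Smad7 and its relative Smad6 of the BMP list, had some of the widest Hdac1 peaks at any start, 6787 bp at Smad7 (chr18:75366034-75372820) and 7263 bp at Smad6 (chr9:64016602-64023864), and both starts were reached in all 4 lists of the other lines. The co-repressors Ski (2639 bp) and Skil (3598 bp), which bind Smads, also had Hdac1 at the start. Either outer end counted for Smad4, Smad7 and Skil. Hdac2 was found deeper in some of these genes, 34.5 kb from the nearest start in Smad2, 96.2 kb in Smad3, 47.7 kb in the co-receptor Tgfbr3 and 86.3 kb in the ubiquitin ligase Smurf1. None of these 4 peaks overlapped a peak of another list. In Acvr1b an Hdac2 peak 22.5 kb from the start overlapped an Hdac1 peak and met 2 lists of other lines.

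In the BMP and Notch lists, too, Hdac1 was at most starts and Hdac2 at 1. Of 21 BMP genes, 17 had Hdac1 at the start, 1 had Hdac2 there and 4 had Hdac2 in the gene, and of 18 Notch genes the counts were 14, 1 and 3. The shares over all protein-coding genes were 32.3%, 2.12% and 10.5%, and 1 gene a list is too few to set against the second. Median lengths were 39.4 kb in the BMP list and 23.1 kb in the Notch list, and the limit of gene length given for the TGF-beta list holds here too. Bmp7, a BMP ligand, had an Hdac1 peak of 1543 bp and an Hdac2 peak of 1517 bp at the start, and Notch3, a Notch receptor, had 1260 bp and 1188 bp. Both pairs were staggered rather than nested. With Hdac1 and no Hdac2 at the start were the ligand Bmp2 (3959 bp), the receptors Bmpr1a (2326 bp) and Bmpr2 (2311 bp), the Smads Smad1 (2443 bp) and Smad5 (1545 bp), and the BMP targets Id1 (2300 bp) and Id3 (1648 bp). So were the receptors Notch1 (2924 bp) and Notch2 (1510 bp), the ligand Jag1 (2785 bp), the DNA-binding partner Rbpj (4045 bp) and the target Hes1 (4823 bp). Either outer end counted for Bmp7, Bmp2, Id1 and Hes1. In the ligand Bmp4 the start had neither, and a shared Hdac2 peak of 1026 bp lay 3.43 kb away.

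Among 30 haematopoietic transcription factors, 19 had Hdac1 at the start, 3 had Hdac2 there and 9 had Hdac2 in the gene. Over all protein-coding genes these shares were 32.3%, 2.12% and 10.5%. The share of genes with Hdac1 at the start and the share holding an Hdac2-only peak rose with gene length, and the median length in this list was 32.1 kb. The 3 with both were Kmt2a, which encodes a histone methyltransferase needed for blood stem cells, Meis1, a homeobox partner of Hox proteins, and Ikzf1, which encodes the lymphoid factor Ikaros. At Kmt2a an Hdac1 peak of 3030 bp (chr9:44880387-44883416) contained an Hdac2 peak of 1967 bp (chr9:44881012-44882978). At Meis1 the peaks were 3154 bp for Hdac1 and 675 bp for Hdac2, and at Ikzf1 2325 bp and 632 bp. The Hdac2 peaks at Meis1 and Ikzf1, both on chromosome 11, were thus among the narrow ones. Runx1, which drives the emergence of blood cells from endothelium, had Hdac1 and no Hdac2 at the start (4210 bp), as did Gfi1 (1838 bp), Tal1 (1913 bp), Gata2 (2225 bp), Myb (3199 bp) and Fli1 (3642 bp). At Fli1 either outer end counted. Erg, an ETS factor of endothelium and blood stem cells, had neither at a start window, and inside it had 1 Hdac1 peak and 2 Hdac2-only peaks, the Hdac2 peaks of 1162 bp and 619 bp. Etv6, another ETS factor, had an Hdac1 peak at the start (1852 bp) and 2 Hdac2-only peaks inside, of 2021 bp and 1076 bp. None of these 4 inner Hdac2 peaks recurred in another list.

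Of the markers that define the cells, the endothelial gene Kdr (2708 bp) had Hdac1 at the start, and Cdh5, Pecam1, Tek and Erg did not. Sox17 has no listed start, and an Hdac1 peak of 1810 bp reached the window of an outer end, which may be the stop. The haematopoietic genes Runx1, Gfi1, Itga2b (1287 bp) and Kit (2148 bp) had Hdac1 at the start, and Gfi1b and Spi1 did not. Over all protein-coding genes 32.3% had Hdac1 and 2.12% had Hdac2 at the start, and with so low a share the finding of no Hdac2 at these 12 starts says nothing particular about them. Peaks cannot show whether these genes were expressed, so the labelled cell type could not be checked from these data.

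Other lists were set against the same background of 32.3% for Hdac1 and 2.12% for Hdac2, with no account taken of gene length. Of 34 endothelial genes 19 had Hdac1 and 1 had Hdac2 at the start. The 1 with Hdac2 was Elk3, an ETS factor with an Hdac1 peak of 2361 bp and an Hdac2 peak of 1753 bp. Of 26 blood cell genes 5 had Hdac1 and none had Hdac2, and of 16 pluripotency genes 3 had Hdac1 and none had Hdac2. Of 35 genes of the complexes in which Hdac1 and Hdac2 work, 27 had Hdac1 and none had Hdac2 at the start, Hdac1 (1241 bp) and Hdac2 (1784 bp) themselves included. At the gene Hdac1 either outer end counted. Of 97 ribosomal protein genes 57 had Hdac1 and 1 had Hdac2, Rps25. Of 39 Hox genes 3 had Hdac1 and 2 had Hdac2, Hoxb3 and Hoxb5, whose windows share 1 Hdac2 peak of 566 bp. At both of these genes either outer end counted, so the peak may lie at a stop. Of 397 Zfp genes 120 had Hdac1 and 6 had Hdac2. None of the 1110 olfactory receptor genes, which are expressed mainly in the nose, had Hdac1 at the start, and 6 (0.541%) had Hdac2. In the other lines Hdac2 was at the start of 25 TGF-beta genes in Bry and 12 in Hd2lox, and of 21 and 7 haematopoietic factors, where 35.1% of all genes in Bry and 13.6% in Hd2lox had it.

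The widest Hdac1 peak at a start without Hdac2 there was one of 10123 bp at Bahcc1 (chr11:120229609-120239731). An Hdac2 peak of 605 bp did overlap this Hdac1 peak, 1391 bp from the gene start and so outside the window. After Smad6 and Smad7 came a peak of 6595 bp shared by the windows of Brd2, which encodes a reader of acetylated histones, and H2-DMa, and peaks of 5694 bp at the proto-oncogene Myc, 5467 bp at the co-receptor Nrp2, 5278 bp at Igf2bp1, 5180 bp at Mex3b and 5073 bp at Ier5l. For Smad7, Myc and Igf2bp1 either outer end counted. All of these starts also had Hdac1 and Hdac2 peaks in Bry.

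The widest Hdac2 peaks at starts without Hdac1 were at genes of mixed kinds. They measured 2105 bp at Tmem91, 2074 bp at Mgp, which encodes matrix Gla protein, 2032 bp at the ubiquitin ligase Cop1, 1968 bp at the protease Capn5, 1905 bp at Igsf5 and 1873 bp at Ncan, which encodes the brain proteoglycan neurocan. Next were 1854 bp at the phosphatase Acpp, 1849 bp at Klhl8, 1810 bp at Tyrobp, a signalling adaptor of myeloid cells, and 1787 bp at Ift81, part of the transport machinery of cilia. For Mgp, Capn5, Igsf5, Klhl8, Tyrobp and Ift81 either outer end counted. The Hdac2 peaks at Cop1 and Ift81 were met by a peak of another line. At Klhl8 a peak of another line reached the window of an outer end without meeting the Hdac2 peak. The windows of the other 7 genes had no peak in another line.

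The starts where both peaks were wide were led by Rasgrp2, an exchange factor for the GTPase Rap, with 2239 bp for Hdac1 and 2382 bp for Hdac2. Kmt2a was next, then Notum, which encodes an enzyme that inactivates Wnt proteins, with 2847 bp and 1869 bp. Elk3 and Acvr2b were also among the first 10, with Arhgef1 (2592 bp and 1751 bp), Celsr3 (2953 bp and 1695 bp), Egr3 (2801 bp and 1682 bp), Cdh8 (1834 bp and 1617 bp) and Acly (1784 bp and 1590 bp). Among these 10 genes the Hdac2 peak was the wider at Rasgrp2 alone. At Notum and Egr3 either outer end counted.

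At 9 of the 191 genes with Hdac2 and no Hdac1 at the start, the Hdac2 peak was also met by an Hdac2 peak of Bry and one of Hd2lox. Among them were Lhx3 and Atoh7, transcription factors of pituitary with motor neurons and of retina, Astn2, Ankrd34b, Insyn1, and Prelid1 with Rab24, whose windows share 1 peak. The Hdac2 peak at Lhx3 measured 1674 bp (chr2:26206828-26208501) and that at Ankrd34b 1508 bp (chr13:92425758-92427265). At Lhx3, Ankrd34b, Insyn1 and Prelid1 with Rab24 the Hdac2 peak met all 4 lists of the other lines, Hdac1 included, so these regions lacked a peak in the Hd1_loxlox Hdac1 list and in no other.

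Inside genes, Hdac2-only peaks were most numerous in Cdh13, which encodes the cell adhesion molecule T-cadherin, with 15 peaks over 1.18 Mb, or 12.7 per Mb. Asic2, an acid-sensing ion channel gene, had 10, and Dnah8, a dynein of the sperm tail, Gse1 and Lsamp had 6 each. All protein-coding genes together had 2.49 Hdac2-only peaks per Mb, and the whole annotated span had 1.78. Most of these genes lie on chromosomes dense in Hdac2-only peaks. Chromosome 8, with Cdh13 and Gse1, had 4.97 per Mb, chromosome 11, with Asic2, 6.05, and chromosome 16, with Lsamp, 3.27. Chromosome 17, with Dnah8, had 1.90. The high counts were not separated from the density of the chromosome. The list of 30 long neuronal adhesion and channel genes had 40 Hdac2-only peaks, or 1.31 per Mb, and 0.853 per Mb without Cdh13. Hdac2-only peaks were therefore not denser in these long genes as a group. Of genes cut by length into 5 equal groups, 0.822% of the shortest and 25.4% of the longest held an Hdac2-only peak, while the density was 4.31 per Mb in the shortest and 2.07 per Mb in the longest.

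Both antibodies had an uneven spread over the chromosomes, with chromosomes 11 and 8 the densest in both lists and chromosome 16 next for Hdac2. On chromosome 8 there were 5.09 Hdac1 and 5.31 Hdac2 peaks per Mb, on chromosome 11 8.32 and 6.57, and on chromosome 16 3.32 and 3.41. The 3 chromosomes, grouped after their values were seen, held 26.7% of Hdac1 and 35.3% of Hdac2 peaks, on 12.8% of the span with 15.2% of the genes. Their density over that of the other autosomes was 2.21 for Hdac1 and 3.30 for Hdac2 in Hd1_loxlox, 1.68 and 1.65 in Bry, and 1.19 and 1.06 in Hd2lox. Chromosome 16 alone gave 1.28 for Hdac1 and 2.16 for Hdac2 in Hd1_loxlox, 0.875 and 0.869 in Bry, and 0.817 and 0.789 in Hd2lox. Per 100 genes, Hdac1 had 63.1 peaks on chromosome 8, 63.1 on chromosome 11 and 48.0 on chromosome 16, against 23.1 to 38.2 on the other autosomes. Hdac2 had 65.8, 49.8 and 49.2, against 12.4 to 23.4. These chromosomes thus also stood apart per gene, in both lists. Chromosome X had 17 Hdac1 and 2 Hdac2 peaks.

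**Figure D4:**
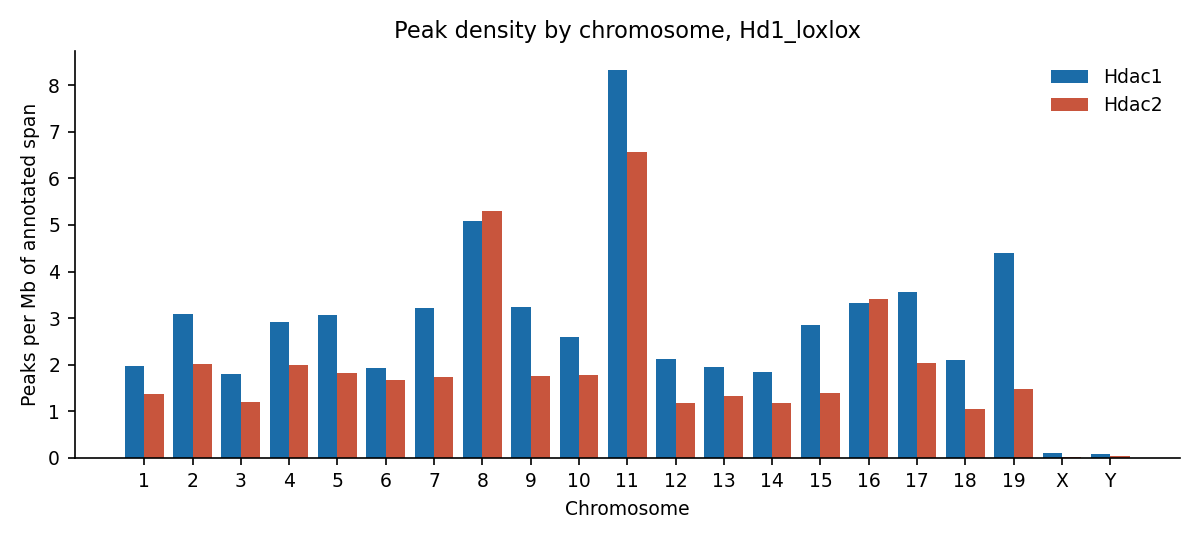
Peaks per Mb of annotated span by chromosome for the Hdac1 and Hdac2 libraries of Hd1_loxlox. Chromosomes 8 and 11 are the highest in both lists, chromosome 16 has 3.32 Hdac1 and 3.41 Hdac2 peaks per Mb, and X and Y have few.

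Narrow Hdac2 peaks were most frequent on chromosomes 8 and 11 and less so on chromosome 16, and on the 3 together the median Hdac1 width was nearly that of the other autosomes. The median width on chromosomes 8, 11 and 16 together was 1473 bp for Hdac1 and 886 bp for Hdac2, against 1477 bp and 1155 bp on the other autosomes. Under 800 bp were 786 of 1821 Hdac2 peaks (43.2%) on the 3 chromosomes and 425 of 3334 (12.7%) on the other autosomes, where single chromosomes ran from 8.72% to 16.3%. The share was 43.4% on chromosome 8, 50.6% on chromosome 11 and 24.9% on chromosome 16, where the median Hdac2 width of 1091 bp was just below the 1097 to 1200 bp of the other autosomes. Of all 1215 narrow Hdac2 peaks, 64.7% lay on chromosomes 8, 11 and 16. The density there over that of the other autosomes was 11.2 for narrow Hdac2 peaks and 2.15 for wider ones, the second value close to the 2.21 of all Hdac1 peaks. In the other lines the medians differed little between the 3 chromosomes and the other autosomes, at 1377 bp and 1375 bp for Hdac1 and 1322 bp and 1305 bp for Hdac2 in Bry, and at 1452 bp and 1445 bp for Hdac1 and 822 bp and 822 bp for Hdac2 in Hd2lox.

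**Figure D5:**
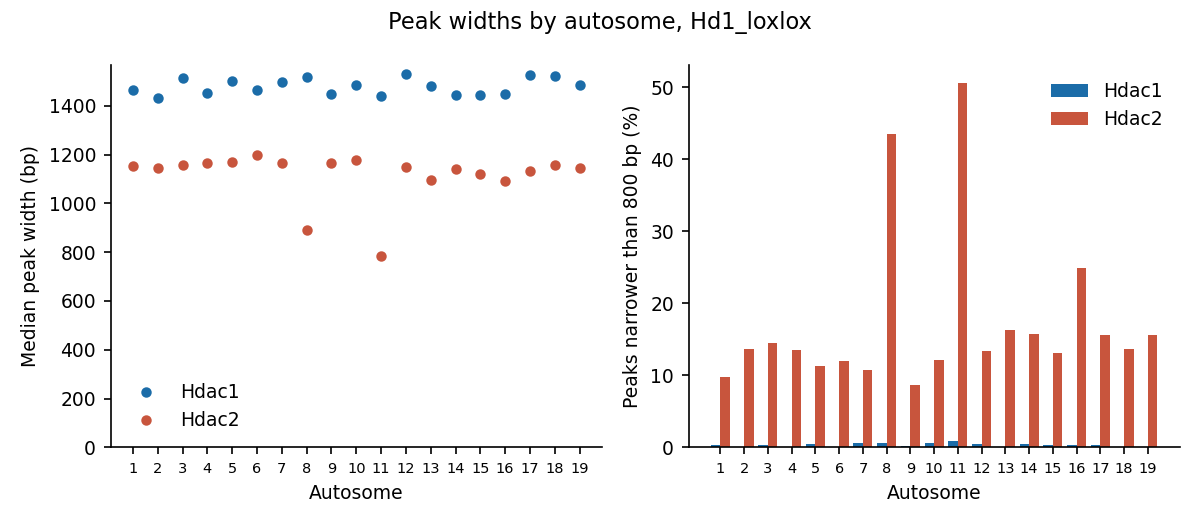
Median peak width in bp (left) and share of peaks narrower than 800 bp in % (right) by autosome, for Hdac1 and Hdac2 of Hd1_loxlox. Hdac2 medians fall to 892 bp on chromosome 8 and 786 bp on chromosome 11, and the other autosomes, chromosome 16 apart, lie between 1097 and 1200 bp.

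The regions with most Hdac2-only peaks in 1 Mb were chr8:70000001-71000000 with 19, chr11:97000001-98000000 and chr17:30000001-31000000 with 17 each, and chr11:114000001-115000000 and chr8:120000001-121000000 with 15 each, against a median of 2 in the 1672 bins that held any. The first of these is also rich in genes, with 53, and in Hdac1 peaks, with 41. The bin on chromosome 17, which holds Dnah8, had 6 protein-coding genes and 4 Hdac1 peaks.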

How the data were processed

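Each of the 6 ChIP libraries had 1 list of chromosome, start and end positions of peaks, deposited by the authors for that library with no score, summit or count, so peaks were called per library. The submitters' processing notes name MACS2 2.1.1.20160309, Bowtie2 2.2.9, SAMtools 1.3.1 and bcl2fastq, with mm10 as the build. The threshold for calling, the MACS2 mode and the control are not given in the sources used. Read depth is unknown, so a region with no peak may have been too thinly sequenced. The Hd1_loxlox comparison has 1 library a side and was not tested.

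Positions are 1-based. Overlap was 1 bp or more. Gene starts came from RefSeq (GRCm38.p6): of 21887 protein-coding genes, 17492 had a listed start in the promoter table, and for the other 4395 windows of 1000 bp were put around both outer ends. Neighbouring genes can share a window or a peak. Background shares of positions were computed exactly by chromosome over 2721.78 Mb, up to the last annotated gene end, with no random placement. Python 3.11.15, numpy 2.4.6, pandas 2.3.3, scipy 1.17.1 and matplotlib 3.10.9 were used, and the overlap code was tested on simulated data.

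Genes named were the 10 with the widest Hdac1 peak at the start and no Hdac2, the 10 with the widest Hdac2 peak and no Hdac1, the 10 with both whose narrower peak was widest, those whose Hdac2 peak met an Hdac2 peak of both other lines, list members with an Hdac2 peak or, for the TGF-beta, BMP, Notch, haematopoietic and complex lists, an Hdac1 peak (examples given), and the 5 genes and 5 bins of 1 Mb with most Hdac2-only peaks. The members and lists were chosen with earlier results of these data known. Some genes that this rule names are not reported here.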

Additional observations from a re-analysis of the deposited data

How the results depend on the processing

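For 14 results, 81 alternatives were computed, of which 44 left the value within its interval or, for a count, within 1.5 times, and 37 moved it. Leaving out chromosomes 8, 11 and 16 and using both outer ends of every gene were chosen after seeing the data. The cause of each move was not tested beyond the change itself. In no alternative did Hdac2-only peaks reach 10% at gene starts, or Hdac1-only peaks drop below 80%. The share of Hdac1 peaks overlapped was 5.13% when peaks within 1000 bp counted, 2.35% with peaks of at least the median width of each list, 4.86% with as many of the widest Hdac1 peaks as there were Hdac2 peaks, and 3.66% without the 3 chromosomes. The share of Hdac2 peaks overlapped was 7.44%, 3.40% and 4.88% in the first 3 of these. Hdac1-only peaks at gene starts were 88.8% with the wider peaks, 88.2% with equal list lengths, 84.1% and 87.7% with windows of 500 and 2500 bp, 89.1% with all annotated genes, 87.7% without the 3 chromosomes and 80.3% with outer ends. Hdac2-only peaks at gene starts were 5.73%, 5.24%, 3.24%, 8.84%, 9.40%, 5.29% and 7.02% in the same order. Overlapped Hdac1 peaks at gene starts were 78.1% with equal list lengths, 78.7% with all annotated genes and 66.8% with outer ends. With the wider peaks, median widths were 1830 bp for Hdac1-only and 1274 bp for Hdac2-only peaks, and the Hdac2-only median was 1157 bp without the 3 chromosomes. Recurrence of Hdac1-only peaks was 95.4% with the wider peaks, 94.5% with equal list lengths and 92.0% without the 3 chromosomes, and that of Hdac2-only peaks 3.68% and 3.54% in the first 2. The share of Hdac1-only peaks on chromosome X was 0.137% with the wider peaks. Genes with Hdac1 and no Hdac2 at the start numbered 3765 and genes with both 67 with the wider peaks, and genes with Hdac2 and no Hdac1 numbered 318 with windows of 2500 bp and 449 with all annotated genes.

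No paired analysis was possible because the line has 1 library a side and the lists hold positions only. Leaving out a library would leave a side empty. Without peak heights, a weak peak and a missing one cannot be told apart, and the shares depend on where the authors' calling threshold lay.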

Other observations

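Of 1005 miRNA hairpins in the RefSeq table, 58 (5.77%) lay under an Hdac1 peak and 5 (0.498%) under an Hdac2 peak, with 1 hairpin, Mir6936, under both. The Hdac1 list covered 12.1 Mb and the Hdac2 list 5.60 Mb of the annotated span of 2721.78 Mb. Most hairpins under an Hdac1 peak lay under one at a protein-coding start, where Hdac1 peaks were frequent. Hdac1 peaks away from protein-coding starts covered Mirlet7i (peak of 1936 bp), of the let-7 family, Mir193a (1719 bp), Mir203 (1456 bp), Mir9-3 (1115 bp), and the neighbours Mir212 and Mir132, which share a peak of 2214 bp. These peaks met 3 lists of the other lines each, except that of Mir193a, which met 4. Among other Hdac1 peaks over hairpins and away from protein-coding starts, that at Mir760 met 4 lists and that at Mir1904 met 3. The rest met fewer, 2 lists at Mir6516 and Mir6991, 1 at Mir1905 and Mir7671, and 0 at Mir12181. The Hdac2 peaks over Mir6916, Mir6919, Mir6939 and Mir6541 lay away from protein-coding starts and met no list of another line. These hairpins were chosen after their values were seen.

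On chromosome Y, 8 Hdac1 and 4 Hdac2 peaks were called, and all 4 Hdac2 peaks overlapped an Hdac1 peak. On chromosome X none of the 17 Hdac1 and 2 Hdac2 peaks overlapped. Over the whole lists 4.26% of Hdac1 and 6.20% of Hdac2 peaks overlapped, so with so few peaks the lack of overlap on X says nothing particular. Of the Hdac2 peaks of the whole list, 217 had exactly the least width of 566 bp, against 11 Hdac1 peaks of exactly their least width, 761 bp. Hdac2-only peaks under 800 bp were at gene starts in 3.83% of cases and wider ones in 4.73%.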
